A study of Homo sapiens with 24 samples.

Results

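The subject was a fixed list of 52 genes of the DNA replication origin and fork, out of 19775 genes that probe sets with a single gene symbol named on the array. The members were listed by name, with earlier results of these data known, and were sorted into 9 roles: origin recognition, licensing, MCM and GINS, firing kinase, polymerases, clamp with clamp loader and lagging strand, single-strand binding, fork protection and chromatin assembly. Each gene was read from its brightest probe set, leaving aside sets of the cross-hybridizing _x_at type where another existed, and all 52 reached the detection floor, a mean signal of 100, in the vehicle arrays of each line.

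RNA was measured on 24 Affymetrix U133 Plus 2.0 arrays from 4 established human prostate cancer cell lines, LNCaP, VCaP, PC3 and NCI-H660, grown in culture. Each line was treated for 24 hours with vehicle (DMSO) or with I-BET762, also called GSK525762A, at 0.5 or 10 µM, with 2 biological replicates of each of the 12 groups. I-BET762 is a small molecule that keeps the BET proteins, readers of acetylated histones, from binding chromatin. LNCaP and VCaP respond to androgen, PC3 lacks that response, and NCI-H660 is a neuroendocrine, small-cell line. Each line is a single established culture rather than a set of tumours.

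Replication starts at origins bound by the origin recognition complex, on which CDC6 and CDT1 load the MCM helicase in the G1 phase. The DBF4-dependent kinase then lets CDC45 and the GINS complex join the helicase, and polymerases, the PCNA clamp and its RFC loader copy both strands behind it, while RPA coats single-stranded DNA and TIPIN, TIMELESS and CLSPN hold the fork together. Many of these genes are classical targets of E2F factors and are transcribed as cells enter S phase. In RNA pooled over a culture, fewer cells in S phase and less RNA of these genes per cell cannot be told apart.

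The labels of 2 lines did not match their ETS genes. ERG, which a fusion drives in VCaP, read 2867 to 7084 on the 6 arrays labelled LNCaP and 5.85 to 28.3 on the 6 labelled VCaP. ETV1, rearranged in LNCaP, was the reverse, at 14.5 to 90.3 under the label LNCaP and 192 to 408 under the label VCaP. Which line is which could not be settled from the labels, so both names are given as labels throughout, and results on both together do not depend on it. KLK3 and KLK2, made by luminal prostate cells, were high in vehicle under both labels and averaged below the floor in PC3 and NCI-H660 vehicle. AXL was high in PC3 alone, and the neuroendocrine CHGA and INSM1 were highest in NCI-H660, though also above the floor under the label LNCaP. Other markers were less specific. VIM, listed for PC3, averaged 1821 in PC3 vehicle and 1358 in NCI-H660 vehicle. The neuroendocrine ENO2 averaged 10178 in NCI-H660 vehicle, 2304 under the label VCaP and 1051 in PC3. ERG in NCI-H660, which also carries an ERG fusion, read 65.5 to 143, and the leukocyte gene PTPRC lay below the floor on all 24 arrays. PECAM1, also listed as absent from a pure line, reached the floor on 5 of 6 NCI-H660 arrays and on all 6 of each other line. It averaged 612 in PC3 vehicle. COL1A2, a stromal collagen, read 1126 and 1209 in vehicle, 243 and 299 at 0.5 µM and 188 and 199 at 10 µM in NCI-H660, so it was lower on every treated array there, and its part in the NCI-H660 results was not tested. Replicate arrays correlated at 0.934 to 0.953 (Pearson, log2 signal over probe sets), and 44.4% to 50.1% of probe sets reached the floor.

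The first question was how far the replication genes moved with I-BET762 in each line. A gene was called lower or higher when limma's adjusted p (Benjamini-Hochberg over all probe sets) was under 0.1 and its mean signal reached 100 in either group. At 0.5 µM, 33 of 52 members fell under the label LNCaP and 47 under the label VCaP, where 16.5% and 13.2% of all detected genes were called lower. PC3 had 4 lower against 4.44% of all genes, and NCI-H660 had 1, RFC3, against 3.27%. At 10 µM the counts were 36 for the label LNCaP (26.7% of all genes), 47 for the label VCaP (21.8%), 16 for PC3 (14%) and 9 for NCI-H660 (16.8%). As shares of the 52 these were 63.5% and 69.2% for the label LNCaP, 90.4% at both concentrations for the label VCaP, 7.69% and 30.8% for PC3, and 1.92% and 17.3% for NCI-H660, the last 2 near the background. The counts of PC3 and NCI-H660 rested on single arrays. PC3 had 0 to 2 at 0.5 µM without any 1 of its 4 arrays and 10 at 10 µM without vehicle replicate 1, vehicle replicate 2 or 10 µM replicate 1, and NCI-H660 had 0 at 0.5 µM without any 1 array (6 at an unadjusted p under 0.05 with all arrays, limma), and at 10 µM 4 without vehicle replicate 1 or 2 and 3 without 10 µM replicate 2.

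Few members were called higher. ORC4 was the only such member under the labels LNCaP and VCaP at either concentration, where 17.4% and 11.8% of all detected genes were called higher at 0.5 µM and 27.1% and 20.1% at 10 µM. PC3 had ORC4 and TIMELESS at both concentrations (6.66% of all genes at 0.5 µM, 16.1% at 10 µM). NCI-H660 had no member higher at 0.5 µM by limma, against 4.36% of all genes and 4 members at an unadjusted p under 0.05, and 7 at 10 µM, against 16.9%. With each array centred on its median, NCI-H660 had 1 member lower and 10 higher at 10 µM, in place of 9 and 7, and PC3 had 0 lower (7 at an unadjusted p under 0.05, limma) and 1 higher at 0.5 µM, in place of 4 and 2.

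The falls under the labels LNCaP and VCaP were large as well as frequent. The median log2 change over the 52 members was -0.71 at 0.5 µM and -0.88 at 10 µM for the label LNCaP, and -1.43 and -1.50 for the label VCaP. In PC3 it was 0.01 and -0.22, and in NCI-H660 -0.09 and -0.02, while the median over all detected genes stayed between -0.02 and 0.03 in every one of these comparisons. With members under the floor set at their bound, the only one of these medians that moved was that of the label VCaP at 0.5 µM, to -1.41. Falls over 2-fold were called for 18 members at 0.5 µM under the label LNCaP (4.52% of all genes) and 36 under the label VCaP (4.29%). At 10 µM there were 25 (11.2%) and 36 (8.42%), and PC3 had 2, POLE2 and TIPIN (3.38%).

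**Figure D1:**
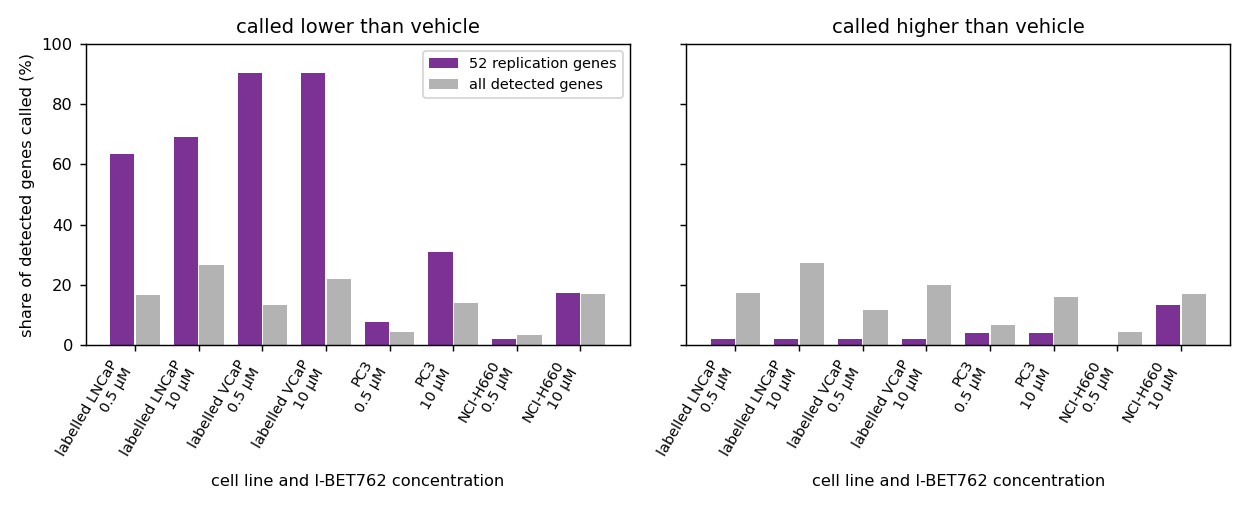
Share of detected genes called lower (left) and higher (right) than vehicle at each concentration, in percent, for the 52 replication genes (purple bars) and for all detected genes (grey bars). Under the labels LNCaP and VCaP the purple bars for lower calls stand at 63.5% to 90.4%, against 13.2% to 26.7% for all genes.

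Single arrays were compared as well. Both 0.5 µM arrays lay below both vehicle arrays for 43 members under the label LNCaP and 48 under the label VCaP, a separation that 35.7% and 34.5% of all detected genes showed. At 10 µM the counts were 45 (39.5% of all genes) and 51 (39.2%). PC3 had 17 at 0.5 µM (30.2%) and 29 at 10 µM (34.4%), and NCI-H660 had 19 (31.8%) and 20 (40%). The shares in NCI-H660, and in PC3 at 0.5 µM, were therefore near the background. The median difference between replicates of a group over the members was 0.07 to 0.17 on the log2 scale.

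**Figure D2:**
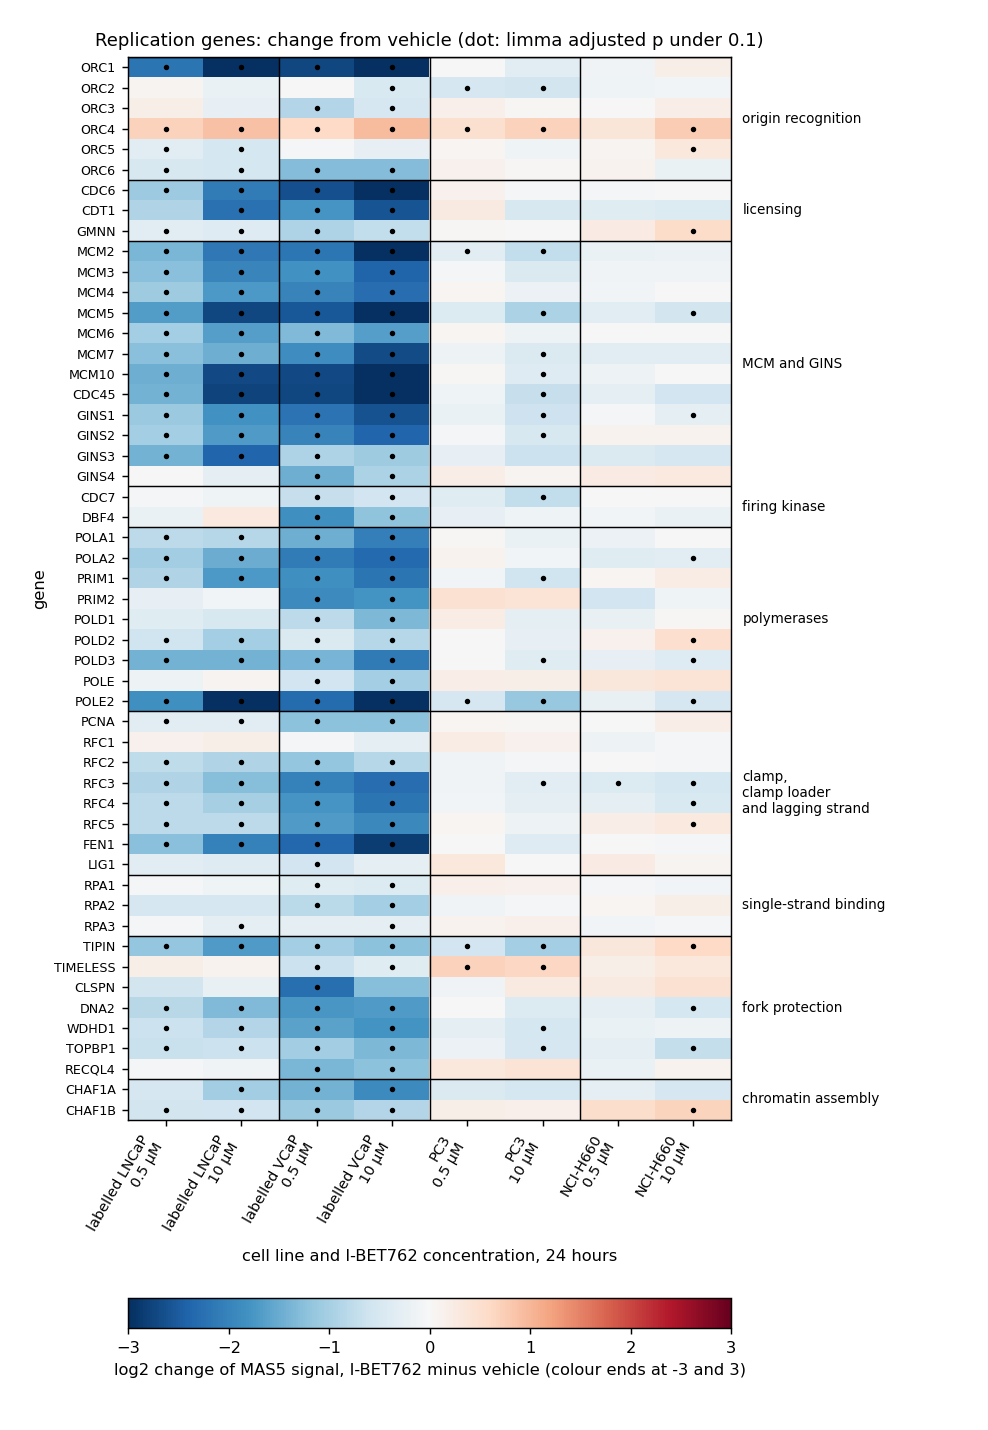
Log2 change of the signal from vehicle for each of the 52 genes (rows, grouped by role) in each line at each concentration (columns), with blue for lower, red for higher and a dot where the call passed. The 4 left columns, labelled LNCaP and VCaP, are blue over almost all roles, ORC4 is a red row, and the columns of PC3 and NCI-H660 are pale.

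Promoters of members are shown because E2F sites at the start of these genes are the textbook route by which they are transcribed together. The sequences are RefSeq's (GRCh38.p14), from 250 bases before the start to 50 after it, and 44 of the 52 members were in that table. The E2F letters searched, on both strands, were TTTCCCGC, TTTGGCGC, TTTCGCGC and TTTGCCGC, and 19 of 44 member promoters (43.2%) held at least 1, against 3.33% of 27305 promoters and 5.04% of the 11576 promoters of detected genes. CACGTG, the E-box bound by MYC and other factors, was in 7 (15.9%, against 7.43% and 9.99%), CCAAT in 24 (54.5%, against 35.7% and 36.4%), and the CHR letters TTTGAA and TTCGAA in 2 (4.55%, against 16.6% and 11.5%). Over these promoters the mean log2 change at 0.5 µM under the labels LNCaP and VCaP had a median of -1.41 for the 19 with E2F letters (from -2.07 to -0.35) and -0.96 for the 25 without (from -2.46 to 0.64), so the ranges overlapped widely. The -2.46 was the fitted value of ORC1, whose treated means lay below the floor. The next lowest without E2F letters was MCM10, at -2.09. Among the members given on every array that are in that table, which lacks MCM5, those printed are CDC6, the 3 with the lowest mean change at 0.5 µM under these labels (ORC1, POLE2 and CDC45) and the 2 with the highest (TIMELESS and ORC4), and MCM2 was added after its values were seen. Capitals mark E2F and CACGTG letters.
CDC6, plus strand, chr17:40287629-40287928: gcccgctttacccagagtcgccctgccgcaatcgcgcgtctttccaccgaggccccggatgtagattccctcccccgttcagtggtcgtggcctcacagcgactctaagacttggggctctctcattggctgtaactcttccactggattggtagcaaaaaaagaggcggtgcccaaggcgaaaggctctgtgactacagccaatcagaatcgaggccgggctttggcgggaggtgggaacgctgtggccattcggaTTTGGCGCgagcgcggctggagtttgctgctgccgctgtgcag
ORC1, minus strand, chr1:52404374-52404673: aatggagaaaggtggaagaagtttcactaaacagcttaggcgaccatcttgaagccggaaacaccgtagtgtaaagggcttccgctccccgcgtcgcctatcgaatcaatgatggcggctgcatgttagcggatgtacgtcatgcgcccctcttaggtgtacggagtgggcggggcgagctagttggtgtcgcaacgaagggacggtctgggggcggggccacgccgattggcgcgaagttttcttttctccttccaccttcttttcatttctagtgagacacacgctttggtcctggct
POLE2, minus strand, chr14:49688165-49688464: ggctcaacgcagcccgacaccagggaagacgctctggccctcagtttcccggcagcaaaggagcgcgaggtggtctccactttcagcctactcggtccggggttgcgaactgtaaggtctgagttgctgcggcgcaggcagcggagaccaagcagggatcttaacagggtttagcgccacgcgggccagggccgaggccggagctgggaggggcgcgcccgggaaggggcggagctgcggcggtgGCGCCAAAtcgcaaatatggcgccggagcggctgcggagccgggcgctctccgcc
CDC45, plus strand, chr22:19479670-19479969: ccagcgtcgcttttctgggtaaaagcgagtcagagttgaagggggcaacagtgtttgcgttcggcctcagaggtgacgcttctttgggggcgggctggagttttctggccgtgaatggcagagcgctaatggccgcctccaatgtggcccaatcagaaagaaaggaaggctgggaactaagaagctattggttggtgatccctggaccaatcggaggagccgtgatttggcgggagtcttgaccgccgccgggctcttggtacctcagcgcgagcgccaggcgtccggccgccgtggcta
TIMELESS, minus strand, chr12:56449377-56449676: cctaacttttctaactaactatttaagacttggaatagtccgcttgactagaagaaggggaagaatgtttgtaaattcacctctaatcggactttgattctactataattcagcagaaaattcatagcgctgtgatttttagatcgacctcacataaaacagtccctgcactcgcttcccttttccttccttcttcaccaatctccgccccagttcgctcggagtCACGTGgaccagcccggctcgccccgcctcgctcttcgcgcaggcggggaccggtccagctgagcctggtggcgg
ORC4, minus strand, chr2:148021502-148021801: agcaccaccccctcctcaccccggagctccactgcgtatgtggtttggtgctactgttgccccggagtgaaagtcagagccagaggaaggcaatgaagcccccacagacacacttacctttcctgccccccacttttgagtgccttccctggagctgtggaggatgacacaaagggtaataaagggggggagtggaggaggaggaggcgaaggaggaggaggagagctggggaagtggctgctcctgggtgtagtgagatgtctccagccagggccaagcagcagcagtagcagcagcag
MCM2, plus strand, chr3:127598161-127598460: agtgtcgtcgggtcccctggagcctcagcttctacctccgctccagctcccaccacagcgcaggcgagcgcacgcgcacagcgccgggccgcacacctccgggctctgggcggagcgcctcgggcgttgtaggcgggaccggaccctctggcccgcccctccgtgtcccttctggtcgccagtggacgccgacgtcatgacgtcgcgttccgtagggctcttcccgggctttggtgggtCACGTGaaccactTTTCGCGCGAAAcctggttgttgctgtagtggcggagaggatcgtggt
The E2F letters began 8 bases after the start in CDC6 and 5 before it in POLE2, where they read on the opposite strand. MCM2 had matches 3 and 7 bases after the start that overlap each other, and CACGTG 11 bases before it. CACGTG stood 25 bases before the start of TIMELESS, and neither motif was found in these windows of ORC1, CDC45 or ORC4, which says only that those letters are absent from the window.

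Among origin recognition genes, ORC1 fell under both labels at both concentrations. ORC1 is the subunit of the complex that varies most over the cell cycle in human cells. It read 359.6 and 379 in vehicle, 115 and 56.7 at 0.5 µM and 49.7 and 38.2 at 10 µM under the label LNCaP and 410.2 and 400.1 in vehicle, 80.8 and 46.1 at 0.5 µM and 10.8 and 14.8 at 10 µM under the label VCaP. All treated means lay below the floor, so the falls are bounds, at least 3.69-fold at 0.5 µM for the label LNCaP (adjusted p = 0.000582) and at least 4.05-fold for the label VCaP (adjusted p = 0.000142). ORC1 read 357 and 314 in vehicle, 343 and 328 at 0.5 µM and 223 and 319.9 at 10 µM in PC3 and 501 and 434 in vehicle, 455 and 416 at 0.5 µM and 621 and 442 at 10 µM in NCI-H660, with changes that did not pass the test.

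ORC6, the smallest and most loosely attached subunit, also fell under both labels, with log2 changes (± SE of the fit, here and below) of -0.48 ± 0.14 for the label LNCaP and -1.31 ± 0.14 for the label VCaP at 0.5 µM (adjusted p = 0.0456 and 6.98e-05). ORC6 was read from its only probe set, which is of the cross-hybridizing _x_at type. The core subunits moved less and not alike. ORC3 fell under the label VCaP (-0.87 at 0.5 µM), ORC5 under the label LNCaP (-0.34), and ORC2 in PC3 (-0.50). The other probe set of ORC2 changed by 0.09 in PC3 at 0.5 µM, so the fall there was seen with 1 of its 2 sets. ORC2 also fell under the label VCaP at 10 µM (-0.46), where the other set changed by -0.94.

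ORC4, a core ATP-binding subunit, was called higher in all 4 lines at 10 µM. Its signal was 3053 and 3320.4 in vehicle, 5035 and 5272 at 0.5 µM and 5819 and 5954 at 10 µM under the label LNCaP and 2715 and 2858 in vehicle, 4634 and 3806 at 0.5 µM and 4901 and 5836 at 10 µM under the label VCaP. In PC3 it was 2780.1 and 2578 in vehicle, 3804 and 3721 at 0.5 µM and 4003 and 4618 at 10 µM, and in NCI-H660 3452 and 3251 in vehicle, 4484 and 4146 at 0.5 µM and 5637 and 5686 at 10 µM. Every treated array was above every vehicle array of its line. The rise was 1.85-fold at 10 µM for the label LNCaP (adjusted p = 0.000138), 1.92-fold for the label VCaP (adjusted p = 0.000147), 1.61-fold in PC3 (adjusted p = 0.00325) and 1.69-fold in NCI-H660 (adjusted p = 0.00131). ORC4 was the only member higher in all 4 lines at 10 µM, where 5.2% of genes detected in each were. At 0.5 µM it passed under the labels LNCaP and VCaP (7.41% of genes were higher in both) and in PC3, and the change in NCI-H660 was 0.36 ± 0.13 (adjusted p = 0.2), so that by limma 0 members were higher in all 4 lines there (1.09% of genes), and 1, ORC4, at an unadjusted p under 0.05. The PC3 call at 0.5 µM (adjusted p = 0.054) was lost when any 1 of its 4 arrays was left out (adjusted p = 0.127 to 0.242), and that of the label VCaP without 0.5 µM replicate 1 (adjusted p = 0.108). Its 2 probe sets had like changes at 0.5 µM, 0.57 and 0.69 on the log2 scale for the label LNCaP and 0.59 and 0.60 for the label VCaP.

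Of the 3 licensing genes, 2 fell at 0.5 µM under the label LNCaP and 3 under the label VCaP, and all 3 fell at 10 µM under both. CDC6, the ATPase that brings MCM to the origin, read 1923 and 1934 in vehicle, 933 and 866 at 0.5 µM and 428 and 480.1 at 10 µM under the label LNCaP. Under the label VCaP it read 2571 and 2182 in vehicle, 376 and 385 at 0.5 µM and 245 and 246 at 10 µM. Each step in concentration lay outside the spread of the replicates. The fall was 2.15-fold at 0.5 µM for the label LNCaP (adjusted p = 4.67e-05) and 6.22-fold for the label VCaP (adjusted p = 7.23e-08). CDC6 read 1600.5 and 1596 in vehicle, 1617 and 1911 at 0.5 µM and 1528 and 1599.5 at 10 µM in PC3 and 1448 and 1336 in vehicle, 1362 and 1328 at 0.5 µM and 1467 and 1326 at 10 µM in NCI-H660, and there its changes were -0.03 ± 0.12 and 0.00 ± 0.12 at 10 µM (adjusted p = 0.929 and 0.99).

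CDT1, its partner in loading, fell at least 2.43-fold for the label LNCaP and at least 3.73-fold for the label VCaP at 10 µM, both bounds against the floor. At 0.5 µM under the label LNCaP its log2 change of -0.89 ± 0.36 did not pass (adjusted p = 0.141), where its brighter _x_at probe set changed by -1.73. Geminin (GMNN), which holds CDT1 inactive after S phase begins, fell less, with log2 changes of -0.33 ± 0.11 for the label LNCaP and -0.92 ± 0.11 for the label VCaP at 0.5 µM, and rose in NCI-H660 at 10 µM (0.56 ± 0.11, adjusted p = 0.0034).

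By count the helicase genes, the largest role, had the most falls. All listed licensing, firing kinase, polymerase, fork protection and chromatin assembly genes also fell under the label VCaP at 0.5 µM. Of the 12 helicase genes, MCM2 to MCM7, MCM10, CDC45 and GINS1 to GINS4, 11 fell under the label LNCaP and 12 under the label VCaP at each concentration, 11 of them over 2-fold in each case. MCM5, a subunit of the MCM ring, had the largest fitted fall of the group under the label LNCaP at 0.5 µM and read 2024 and 2249 in vehicle, 731 and 616 at 0.5 µM and 388 and 265 at 10 µM. Under the label VCaP it read 2328 and 2371 in vehicle, 376 and 433 at 0.5 µM and 174 and 158 at 10 µM. The 10 µM arrays were below the 0.5 µM arrays and these below the vehicle arrays under both labels. The fall at 10 µM was 6.65-fold for the label LNCaP (adjusted p = 6.65e-08) and 14.2-fold for the label VCaP (adjusted p = 1.11e-08). MCM5 read 1826 and 1895 in vehicle, 1480.4 and 1338 at 0.5 µM and 993 and 930.3 at 10 µM in PC3, a fall of 1.94-fold at 10 µM (adjusted p = 0.00204). In NCI-H660 it read 1553 and 1429.9 in vehicle, 1227 and 1165 at 0.5 µM and 1094 and 959 at 10 µM (adjusted p = 0.046 at 10 µM). That call was lost without any 1 of 3 arrays, vehicle replicate 1, vehicle replicate 2 or 10 µM replicate 2 (log2 changes of -0.48, -0.60 and -0.45). It was also lost with the mean over probe sets (limma, adjusted p = 0.117). The other probe set of MCM5 changed by -0.09 in NCI-H660 at 10 µM, against -0.54 for the set used.

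CDC45, the helicase cofactor that marks a fired origin, had the largest fitted fall of the group under the label VCaP at 0.5 µM, next to MCM10 (-2.73 and -2.71). It read 1899.5 and 2063 in vehicle, 730.4 and 759.6 at 0.5 µM and 394 and 213 at 10 µM under the label LNCaP and 1735 and 1710.4 in vehicle, 241 and 282 at 0.5 µM and 165 and 201 at 10 µM under the label VCaP. In PC3 it read 1144 and 969 in vehicle, 958 and 955 at 0.5 µM and 582 and 719 at 10 µM, and in NCI-H660 563 and 582 in vehicle, 482 and 455 at 0.5 µM and 440.4 and 337 at 10 µM. Treated and vehicle arrays did not overlap in any line. The fall at 0.5 µM was 2.66-fold for the label LNCaP (adjusted p = 0.0012) and 6.62-fold for the label VCaP (adjusted p = 6.18e-06). In PC3 the 10 µM call (adjusted p = 0.0733) was lost without vehicle replicate 1, vehicle replicate 2 or 10 µM replicate 1 (adjusted p = 0.126 to 0.315).

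MCM2, the subunit whose tail binds histones, read 5397 and 5538 in vehicle, 2148 and 2065 at 0.5 µM and 1241 and 1217 at 10 µM under the label LNCaP and 6122 and 6302 in vehicle, 1369 and 1388 at 0.5 µM and 699 and 759 at 10 µM under the label VCaP. PC3 arrays gave 4191 and 4019 in vehicle, 3469 and 3019.9 at 0.5 µM and 2423 and 2537 at 10 µM, and NCI-H660 arrays 8372 and 7546 in vehicle, 6802 and 7078 at 0.5 µM and 7108 and 6911 at 10 µM. The log2 change at 10 µM was -2.15 ± 0.10 for the label LNCaP, -3.09 ± 0.10 for the label VCaP and -0.73 ± 0.10 in PC3 (adjusted p = 0.000472), against -0.18 ± 0.10 in NCI-H660 (adjusted p = 0.314). Its small PC3 fall at 0.5 µM (adjusted p = 0.0957) was lost without vehicle replicate 1, vehicle replicate 2 or 0.5 µM replicate 2 (adjusted p = 0.213 to 0.368).

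The 4 GINS genes, whose products form a single complex, did not all move alike. GINS1 and GINS2 followed the MCM genes under both labels. GINS4 was the one exception of the group under the label LNCaP, with log2 changes of 0.02 ± 0.21 and -0.28 ± 0.21, and fell under the label VCaP (-1.47 ± 0.21, adjusted p = 0.000553). Under the label LNCaP its 3 probe sets that reached the floor disagreed at 0.5 µM, 2 with a log2 change below 0 and 1 at 0.02. GINS3 fell under both labels at each concentration, with log2 changes of -1.06 ± 0.29 for the label VCaP and -2.38 ± 0.29 for the label LNCaP at 10 µM. Its other probe set gave a smaller gap between the labels. That set changed by -1.89 for the label VCaP and -2.08 for the label LNCaP at 0.5 µM, and by -2.07 and -2.84 at 10 µM.

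The firing kinase, CDC7 with its activator DBF4, fell under the label VCaP and had 0 of 2 members called by limma under the label LNCaP at either concentration (unadjusted p under 0.05 for 0 at 0.5 µM, and for 1, DBF4 upward, at 10 µM). DBF4 read 1447 and 1633 in vehicle, 1396 and 1289.5 at 0.5 µM and 1895 and 1842 at 10 µM under the label LNCaP and 1928 and 1958 in vehicle, 556 and 534 at 0.5 µM and 797 and 883 at 10 µM under the label VCaP. In PC3 it read 1764 and 2074 in vehicle, 1671 and 1548 at 0.5 µM and 1704 and 1801 at 10 µM, and in NCI-H660 3104 and 3314 in vehicle, 3244 and 2815 at 0.5 µM and 2644 and 2975 at 10 µM. Under both labels the 10 µM arrays stood above the 0.5 µM arrays, by 0.48 ± 0.12 for the label LNCaP and 0.62 ± 0.12 for the label VCaP on the log2 scale (adjusted p = 0.0344 and 0.016). DBF4 was the only member higher at 10 µM than at 0.5 µM in either, where 9.44% and 4.29% of all genes were, and under the label VCaP this call was lost with each array centred on its median. Against vehicle its fall under the label VCaP was 3.57-fold at 0.5 µM and 2.32-fold at 10 µM (adjusted p = 7.78e-07 and 1.41e-05). CDC7 fell in PC3 at 10 µM (-0.73 ± 0.11, adjusted p = 0.00094).

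All 9 polymerase genes fell under the label VCaP and 6 under the label LNCaP, at each concentration. POLE2, the second subunit of the leading-strand polymerase, fell in 3 lines at 0.5 µM and, like TIPIN alone of the other members, by over 2-fold in 3 lines at 10 µM. It read 1064 and 1196 in vehicle, 331 and 299 at 0.5 µM and 121 and 135 at 10 µM under the label LNCaP and 1606 and 1486 in vehicle, 294 and 336 at 0.5 µM and 169 and 217 at 10 µM under the label VCaP. PC3 arrays gave 1956 and 1938 in vehicle, 1491 and 1252 at 0.5 µM and 868 and 914 at 10 µM, and NCI-H660 arrays 3315 and 3029 in vehicle, 2587 and 2869 at 0.5 µM and 2392 and 2105 at 10 µM. The treated arrays lay below the vehicle arrays in every line. The fall at 10 µM was 8.83-fold for the label LNCaP, 8.07-fold for the label VCaP, 2.19-fold in PC3 (adjusted p = 0.000284) and 1.41-fold in NCI-H660 (adjusted p = 0.0411). The PC3 call at 0.5 µM (adjusted p = 0.0845) was lost without any 1 of its 4 arrays (adjusted p = 0.109 to 0.33), and the NCI-H660 call at 10 µM without vehicle replicate 1 or 10 µM replicate 2 (adjusted p = 0.206 and 0.232).

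POLE, the catalytic partner of POLE2, moved far less, with a log2 change of 0.09 ± 0.17 at 10 µM for the label LNCaP (adjusted p = 0.803) and -1.02 ± 0.17 for the label VCaP (adjusted p = 0.000896). The primase genes also parted. PRIM1, the catalytic subunit, fell under both labels (-0.89 for LNCaP and -1.85 for VCaP at 0.5 µM), whereas PRIM2, the large subunit, fell under the label VCaP alone, by at least 3.32-fold at 0.5 µM as a bound against the floor, and changed by -0.24 ± 0.25 for the label LNCaP (adjusted p = 0.65). POLD2, a small subunit of the lagging-strand polymerase, fell under both labels and rose in NCI-H660 at 10 µM (0.49 ± 0.15, adjusted p = 0.045).

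Clamp, clamp loader and lagging-strand genes fell for 6 of 8 members under the label LNCaP, at each concentration, and for 7 at 0.5 µM and 6 at 10 µM under the label VCaP. FEN1, the nuclease that trims Okazaki fragments, read 3599 and 3494 in vehicle, 1719 and 1307 at 0.5 µM and 742 and 1008 at 10 µM under the label LNCaP and 6418 and 6308 in vehicle, 1246 and 1221 at 0.5 µM and 954 and 828 at 10 µM under the label VCaP. PC3 arrays gave 4352 and 4762 in vehicle, 4459.9 and 4580.1 at 0.5 µM and 3037 and 3946 at 10 µM, and NCI-H660 arrays 3782 and 4029 in vehicle, 3887 and 4049 at 0.5 µM and 3966 and 3705 at 10 µM. Treated and vehicle arrays were apart under both labels, and overlapped in PC3 at 0.5 µM and in NCI-H660 at both concentrations. The fall at 0.5 µM was 2.37-fold for the label LNCaP (adjusted p = 0.000298) and 5.16-fold for the label VCaP (adjusted p = 1.23e-06).

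PCNA, the sliding clamp, fell under both labels, with log2 changes of -0.33 for the label LNCaP and -1.24 for the label VCaP at 0.5 µM. RFC2 to RFC5 fell under both labels at both concentrations. RFC1, the largest subunit of the loader, was never called lower, and its log2 changes lay between -0.26 and 0.23. RFC3 was 1 of 6 members lower in all 4 lines at 10 µM. LIG1, which seals the fragments, fell under the label VCaP at 0.5 µM alone (-0.57 ± 0.19, adjusted p = 0.0933).

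The 3 single-strand binding genes had 0 falls by limma under the label LNCaP at 0.5 µM (0 at an unadjusted p under 0.05). RPA3 fell there at 10 µM, and under the label VCaP 2 of the 3 fell at 0.5 µM and 3 at 10 µM. RPA2, the middle subunit of RPA, read 4825 and 4496 in vehicle, 3435 and 3174 at 0.5 µM and 3702 and 2950.3 at 10 µM under the label LNCaP and 6227 and 4953 in vehicle, 3289 and 3011 at 0.5 µM and 2690.2 and 2829 at 10 µM under the label VCaP. PC3 arrays gave 5661 and 3376 in vehicle, 4964 and 3285 at 0.5 µM and 4507 and 3950.4 at 10 µM, with a wide spread between replicates in vehicle and at 0.5 µM, and NCI-H660 arrays 4818 and 5209 in vehicle, 5383 and 5030.5 at 0.5 µM and 5901 and 5465 at 10 µM. Its fall passed under the label VCaP, 1.76-fold at 0.5 µM (adjusted p = 0.0445) and 2.01-fold at 10 µM (adjusted p = 0.0075), and the 0.5 µM call was lost without vehicle replicate 1, 0.5 µM replicate 1 or 0.5 µM replicate 2 (adjusted p = 0.12 to 0.27). Under the label LNCaP the change was -0.50 ± 0.23 (adjusted p = 0.208). RPA1 and RPA3 fell by log2 changes no larger than -0.42 where they passed.

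Among fork protection genes, TIPIN and TIMELESS, whose products bind each other, were both called lower under the label VCaP and were called in opposite directions in PC3. TIPIN read 596 and 666 in vehicle, 281 and 287 at 0.5 µM and 168 and 221 at 10 µM under the label LNCaP and 1948 and 2057 in vehicle, 957 and 1018 at 0.5 µM and 837 and 865 at 10 µM under the label VCaP. In PC3 it read 1638 and 1909 in vehicle, 1152 and 1231 at 0.5 µM and 774 and 969 at 10 µM, below vehicle at both concentrations, and in NCI-H660 850.4 and 954 in vehicle, 1141 and 1134 at 0.5 µM and 1425 and 1317 at 10 µM, above vehicle at both. The log2 change at 10 µM was -1.71 ± 0.15 for the label LNCaP, -1.23 ± 0.15 for the label VCaP, -1.03 ± 0.15 in PC3 (adjusted p = 0.000569), against 0.61 ± 0.15 in NCI-H660 (adjusted p = 0.0155). The NCI-H660 call was lost without vehicle replicate 1 or 10 µM replicate 1 (adjusted p = 0.117 and 0.106), and the PC3 call at 0.5 µM (adjusted p = 0.0563) without vehicle replicate 2, 0.5 µM replicate 1 or 0.5 µM replicate 2 (adjusted p = 0.12 to 0.291).

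TIMELESS read 2310.1 and 2299 in vehicle, 2529.8 and 2648 at 0.5 µM and 2705 and 2275 at 10 µM under the label LNCaP, with overlap at 10 µM, and 1864 and 1698 in vehicle, 1199 and 1081 at 0.5 µM and 1377 and 1402 at 10 µM under the label VCaP, below vehicle. In PC3 it read 799 and 879.9 in vehicle, 1447 and 1281 at 0.5 µM and 1137 and 1445 at 10 µM, above vehicle, and in NCI-H660 4234 and 4389 in vehicle, 4816 and 4963 at 0.5 µM and 5435 and 5303 at 10 µM, also above it. The rise in PC3 was 1.62-fold at 0.5 µM (adjusted p = 0.0117) and the fall under the label VCaP 1.56-fold (adjusted p = 0.00799). The smaller fall under the label VCaP at 10 µM (adjusted p = 0.0888) was lost without any 1 of its 4 arrays (adjusted p = 0.133 to 0.351). With the mean over the probe sets of the gene, none of the 4 TIMELESS calls in PC3 and under the label VCaP passed (adjusted p = 0.356 to 0.636).

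CLSPN, which carries the checkpoint signal from stalled forks to CHEK1, had the widest spread between replicates. It read 137 and 129 in vehicle, 95.1 and 85.5 at 0.5 µM and 116 and 112 at 10 µM under the label LNCaP and 144 and 177 in vehicle, 11.7 and 95.3 at 0.5 µM and 71.6 and 59.6 at 10 µM under the label VCaP. In PC3 it read 229 and 168 in vehicle, 129 and 254 at 0.5 µM and 223 and 249 at 10 µM, and in NCI-H660 282 and 313 in vehicle, 371 and 344 at 0.5 µM and 425 and 391 at 10 µM. The 0.5 µM replicates under the label VCaP differed by 3.02 on the log2 scale, the largest replicate difference of any member in any group, and the fall there, at least 1.6-fold against the floor (adjusted p = 0.0444), was lost without vehicle replicate 1, vehicle replicate 2 or 0.5 µM replicate 1 (adjusted p = 0.135 to 0.234), the last of which moved the log2 change to -0.74. TOPBP1, the scaffold that activates the checkpoint kinase ATR, read 1595 and 1829 in vehicle, 1058 and 1096 at 0.5 µM and 1089 and 1080.2 at 10 µM under the label LNCaP and 1825 and 2002 in vehicle, 897 and 945 at 0.5 µM and 757 and 745 at 10 µM under the label VCaP. PC3 arrays gave 1474 and 1493 in vehicle, 1251 and 1357 at 0.5 µM and 944 and 1159.8 at 10 µM, and NCI-H660 arrays 3605 and 3859 in vehicle, 3051 and 3166 at 0.5 µM and 2303 and 2217 at 10 µM. Its fall at 10 µM passed in all 4 lines, with log2 changes of -0.66 for the label LNCaP, -1.35 for the label VCaP, -0.50 in PC3 and -0.72 in NCI-H660 (adjusted p = 0.00105), and the PC3 call was lost without 10 µM replicate 1 (adjusted p = 0.118).

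The chromatin assembly factor, which sets histones on new DNA, had both of its listed genes lower under the label VCaP at each concentration. CHAF1A, its large subunit, read 443 and 474 in vehicle, 287 and 361 at 0.5 µM and 188 and 262 at 10 µM under the label LNCaP and 578 and 593 in vehicle, 206 and 235 at 0.5 µM and 164 and 146 at 10 µM under the label VCaP. PC3 arrays gave 594 and 648 in vehicle, 518 and 413 at 0.5 µM and 507 and 369 at 10 µM, and NCI-H660 arrays 896 and 723 in vehicle, 615 and 735 at 0.5 µM and 591 and 545 at 10 µM. The fall at 10 µM was 2.06-fold for the label LNCaP (adjusted p = 0.00163) and 3.79-fold for the label VCaP (adjusted p = 1.94e-05), and did not pass in the other lines. CHAF1B, its partner, read 1113 and 1155 in vehicle, 798 and 755 at 0.5 µM and 738 and 781 at 10 µM under the label LNCaP and 621 and 584 in vehicle, 261 and 302 at 0.5 µM and 311 and 340.1 at 10 µM under the label VCaP. In PC3 it read 449 and 516 in vehicle, 665 and 445 at 0.5 µM and 548 and 530.0 at 10 µM, with overlap at 0.5 µM, and in NCI-H660 452 and 415 in vehicle, 666 and 579.7 at 0.5 µM and 692 and 695 at 10 µM, above vehicle. It fell under the label VCaP (-1.10 ± 0.16, adjusted p = 0.000788) and rose in NCI-H660 at 10 µM (0.68 ± 0.16, adjusted p = 0.0133). The 0.5 µM call under the label LNCaP (adjusted p = 0.0422) was lost without any 1 of its 4 arrays (adjusted p = 0.118 to 0.178).

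**Figure D3:**
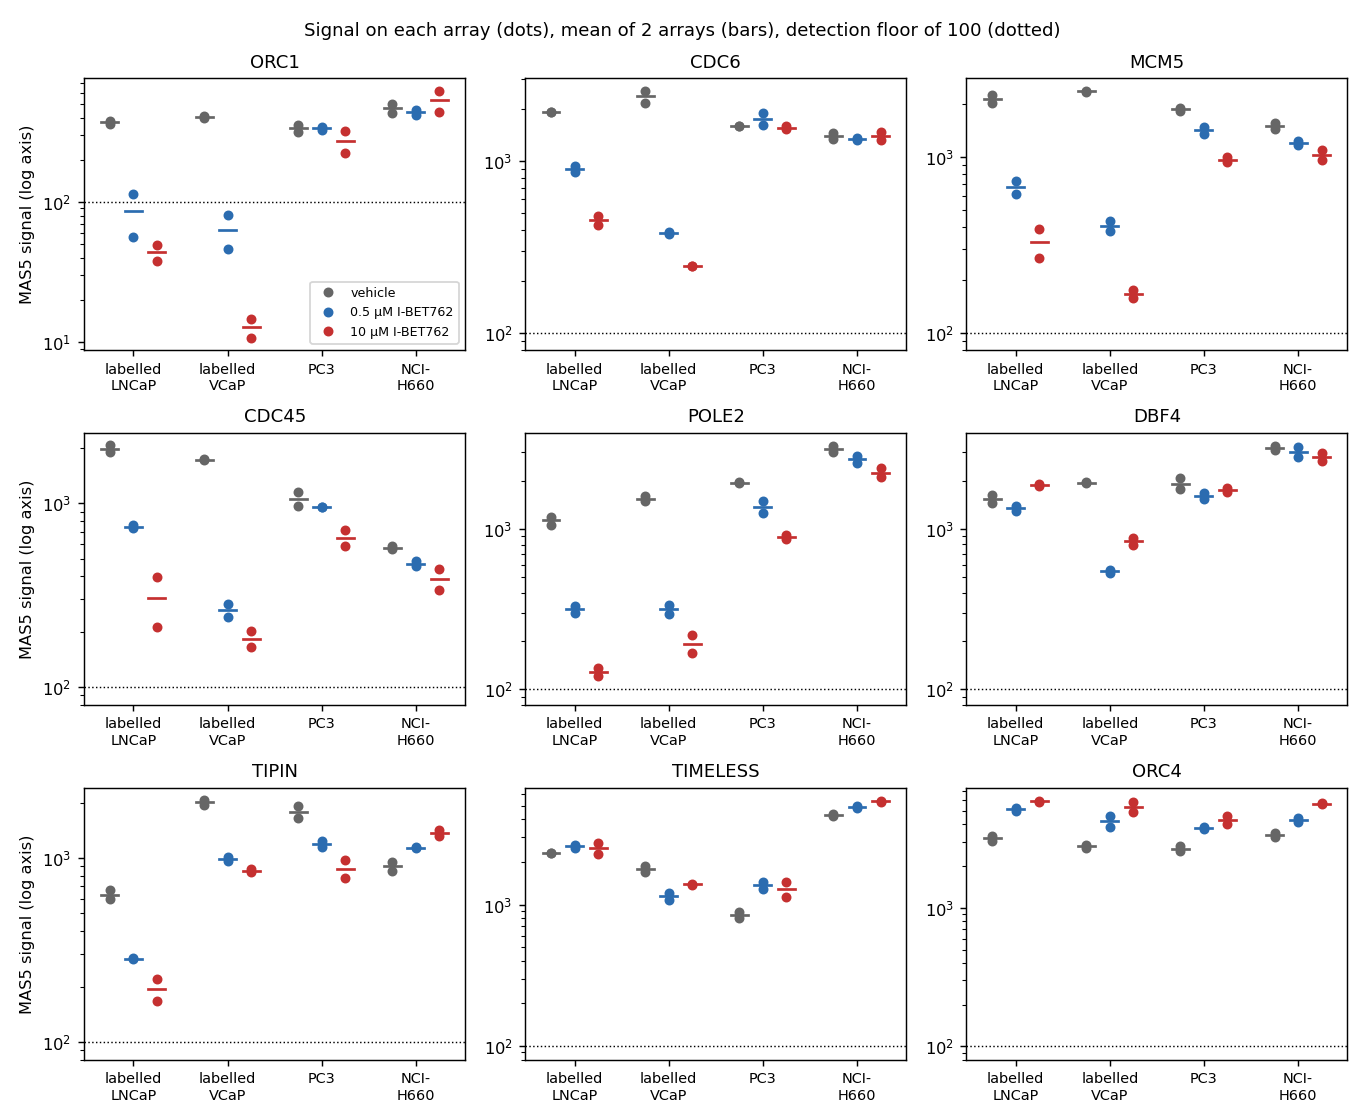
MAS5 signal on each array (dots, log axis) for 9 members in the 4 lines, in vehicle (grey), 0.5 µM (blue) and 10 µM (red) I-BET762, with the mean of 2 arrays as a bar and the detection floor of 100 dotted. The arrays of ORC1, CDC6, MCM5, CDC45 and POLE2 lie lower with each concentration under the labels LNCaP and VCaP. The step from 0.5 µM to 10 µM was not called for ORC1, whose treated means are below the floor, or for CDC45 under the label VCaP. DBF4 drops under the label VCaP, TIPIN and TIMELESS move in opposite directions between lines, and the treated arrays of ORC4 lie above vehicle in every line.

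The second question was whether the lines differed. The mean change under the labels LNCaP and VCaP, minus that in PC3 and NCI-H660, was tested for each gene. It was further down for 39 members at 0.5 µM (8.52% of all genes) and 45 at 10 µM (16.7%). By limma 0 were further up at either concentration (5.78% and 15.2% of all genes), with 1 and 0 members at an unadjusted p under 0.05. The median difference over the members was -1.01 at 0.5 µM and -1.09 at 10 µM. MCM10 differed by -2.03 ± 0.12 at 0.5 µM (adjusted p = 4.17e-06) and CDC6 by -1.91 ± 0.12 (adjusted p = 4.17e-06), while ORC1 passed (adjusted p = 0.000869) with treated means under the floor. The difference passed at neither concentration for ORC2, ORC4, CDC7, RFC1 or CLSPN, with values at 10 µM of -0.01 ± 0.13, 0.19 ± 0.13, 0.01 ± 0.11, -0.09 ± 0.16 and -1.12 ± 0.64.

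The change under the label VCaP was further down than under the label LNCaP for 26 members at 0.5 µM (5.7% of all genes) and 25 at 10 µM (12.1%). GINS3 was the 1 member further up, at 10 µM (1.32 ± 0.42, adjusted p = 0.0756, against 9.78% of all genes). Its other probe set had a smaller gap at 10 µM, with changes of -2.07 for the label VCaP and -2.84 for the label LNCaP. At 0.5 µM 0 passed upward by limma (0 at an unadjusted p under 0.05; 2.99% of all genes). DBF4 (-1.64 ± 0.17) and CDC6 (-1.54 ± 0.17) had wide gaps at 0.5 µM, and PRIM2 passed (adjusted p = 0.0241) with treated means under the floor for the label VCaP. Helicase and loader genes passed too, among them GINS4 (-1.48), MCM10 (-1.25) and RFC3 (-1.12). The GINS4 signals under the label LNCaP were close to the floor. The members kept much the same order under both labels, which share no arrays, with r of 0.766 and rho of 0.742 over 52 genes at 0.5 µM and r of 0.855 and rho of 0.817 at 10 µM, given as a description since genes are not independent.

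**Figure D4:**
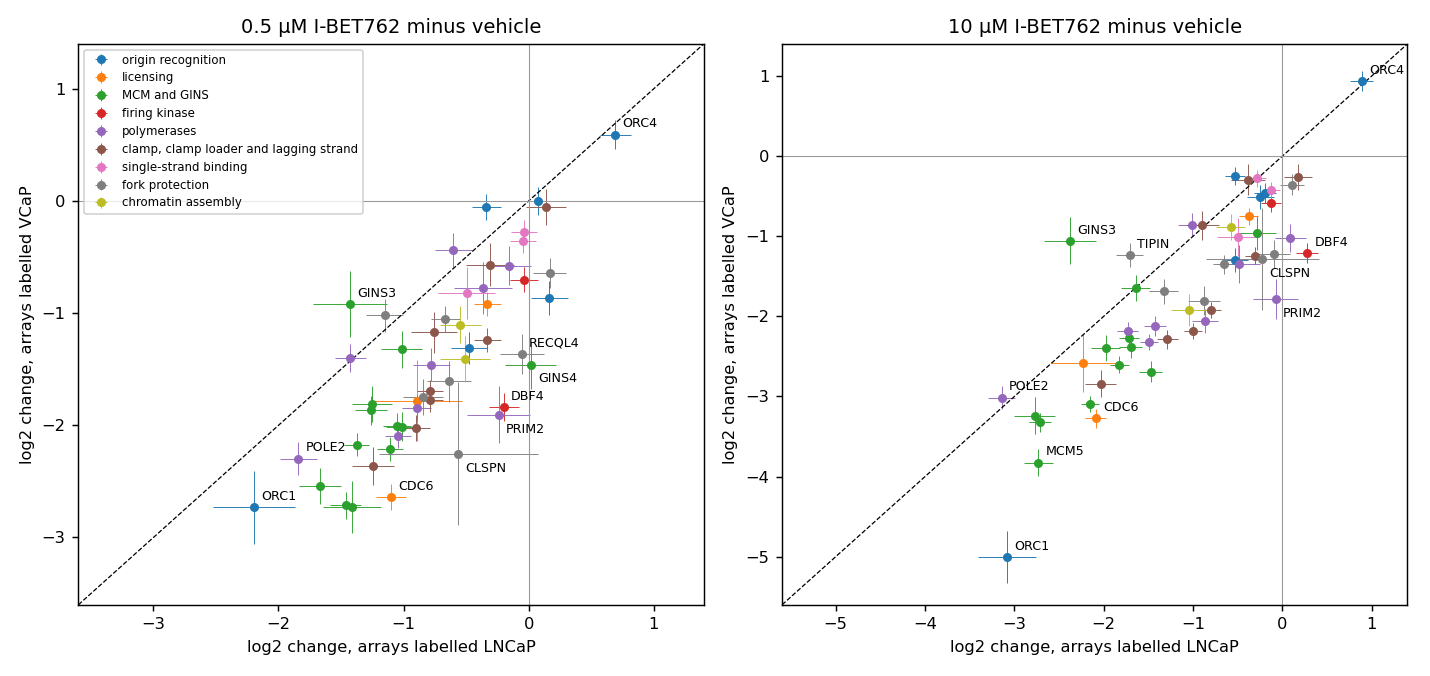
Log2 change from vehicle of each of the 52 genes under the label LNCaP (x axis) and the label VCaP (y axis) at 0.5 µM (left) and 10 µM (right), coloured by role, with the standard error of the fit as bars and equality dashed. Most points lie below the dashed line (47 at 0.5 µM and 43 at 10 µM), with GINS3 above it and DBF4 and PRIM2 near 0 on the x axis.

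MKI67, a marker of cycling cells that is no member, had log2 changes of 0.02 at 0.5 µM (adjusted p = 0.971) and 0.18 at 10 µM (adjusted p = 0.477) under the label LNCaP. Under the label VCaP it fell by 1.72 and 1.37 on the log2 scale (adjusted p = 9.5e-06 and 3.13e-05). In NCI-H660 it fell by 0.67 at 10 µM (adjusted p = 0.00997), and in PC3 its changes were -0.21 and -0.26 (adjusted p = 0.596 and 0.377). The part that a changed share of cycling cells played in the members' values was not tested.

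The third question was what the higher concentration added. From 0.5 µM to 10 µM, 18 of the 51 members detected were further down under the label LNCaP (10.2% of all genes) and 12 of 49 under the label VCaP (5.62%). Helicase genes made up 10 of these 18 and 6 of these 12. CDC45 (-1.36 ± 0.23), POLE2 (-1.30 ± 0.15) and MCM10 (-1.25 ± 0.12) dropped further under the label LNCaP, and MCM5 (-1.28 ± 0.16) and MCM2 (-0.92 ± 0.10) under the label VCaP. The count under the label LNCaP was 10 without 10 µM replicate 1, and that under the label VCaP 7 without 0.5 µM replicate 1 and 6 without 0.5 µM replicate 2. PC3 had 2 members further down, PRIM1 and POLE2 (1.17% of all genes), and NCI-H660 had 1, TOPBP1 (4.16%).

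Across lines, 6 of the 52 were lower in every line at 10 µM: MCM5, GINS1, POLD3, POLE2, RFC3 and TOPBP1, where 4.62% of genes detected in each line were lower in all 4. With arrays centred on their medians 1 member was lower in NCI-H660, so the count of 6 depended on that scaling. It also depended on the probe set, since MCM5 was not called in NCI-H660 with the mean over its sets (limma, adjusted p = 0.117). At 0.5 µM the count was 0 by limma (0.478% of genes; also 0 at an unadjusted p under 0.05), and MCM2, POLE2, RFC3 and TIPIN were lower in 3 lines. Lower in both the lines labelled LNCaP and VCaP were 32 members at 0.5 µM (7.93% of genes) and 35 at 10 µM (15.6%). In the opposite sense, 7 members (9.38% of genes) were lower in one line and higher in another at 10 µM: ORC5, GMNN, POLD2, RFC5, TIPIN, TIMELESS and CHAF1B. For 6 of these the line with the rise was NCI-H660, and for TIMELESS it was PC3. Not every probe set rose in NCI-H660 at 10 µM. For RFC5 the set used changed by 0.30 and its other sets by 0.29 and -0.39. For ORC5 the set used changed by 0.31 and the other set at the floor by -0.10. The limits of the TIMELESS and TIPIN calls are given above.

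Before treatment all 52 members were detected in each line. Their median signal in vehicle was 2015 in NCI-H660 (225 over all genes), 1743 under the label VCaP (171), 1602 in PC3 (194) and 1479 under the label LNCaP (167). Signals of different genes come from different probes and give no order between genes. Set against the mean of the other 3 lines, NCI-H660 had 28 members higher (36.3% of all genes) and 13 lower (34.8%). ORC3 (2.04 ± 0.12), LIG1 (1.73 ± 0.16), CDT1 (1.67 ± 0.30) and PRIM1 (1.67 ± 0.09) were furthest up, and GINS4 (-1.62 ± 0.17) and CDC45 (-1.42 ± 0.19) furthest down. GINS4 averaged 205 in NCI-H660 vehicle, below the label VCaP (1187) and PC3 (1157) but not below the label LNCaP (187). Set against the label LNCaP, the label VCaP had 15 members higher (33.2%) and 10 lower (28.7%). GINS4 averaged 1187 ± 20.7 under the label VCaP and 187 ± 65.5 under the label LNCaP (SD, n = 2 each), and TIPIN 2003 ± 76.7 and 631 ± 49.8, the widest gaps upward.

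A further list of 35 replication genes outside the 52, of which 33 had a probe set with a single symbol, was counted in the same way. At 0.5 µM 10 were lower and 3 higher under the label LNCaP (16.5% and 17.4% of all genes), with a median log2 change of -0.07. Under the label VCaP 16 were lower and 2 higher (13.2% and 11.8% of all genes), with a median of -0.60. At 10 µM the counts were 12 and 4 for the label LNCaP (26.7% and 27.1% of all genes), and 16 and 4 for the label VCaP (21.8% and 20.1%). UHRF1, which brings DNA methylation to new strands, had a log2 change of -2.97 ± 0.18 for the label VCaP and -1.62 ± 0.18 for the label LNCaP at 0.5 µM, and CHEK1, the checkpoint kinase, -2.16 ± 0.21 and -1.39 ± 0.21. PC3 had 0 lower and 2 higher at 0.5 µM by limma (3 lower at an unadjusted p under 0.05), against 4.44% and 6.66% of all genes. At 10 µM PC3 had 6 lower (18.2%) and 4 higher, against 14% and 16.1% of all genes. NCI-H660 had 0 lower and 3 higher at 0.5 µM (2 lower at an unadjusted p under 0.05), against 3.27% and 4.36% of all genes. At 10 µM NCI-H660 had 2 lower (6.06%) and 6 higher, against 16.8% and 16.9% of all genes. RNASEH2C, a subunit of the ribonuclease that removes ribonucleotides from DNA, rose in all 4 lines at both concentrations. Of the genes detected in each line, 1.09% rose in all 4 at 0.5 µM and 5.2% at 10 µM. At 10 µM RNASEH2C rose by 0.94 ± 0.12 for the label LNCaP and 1.29 ± 0.12 for the label VCaP on the log2 scale. It rose by 1.07 ± 0.12 in PC3 and 1.63 ± 0.12 in NCI-H660 (adjusted p = 1.54e-06 in NCI-H660).

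Agreement between probe sets could be checked for 23 members. Of 96 probe sets for the 52 genes, 84 reached the floor, and these genes had 2 or more that did. At 0.5 µM the probe sets at the floor disagreed in sign for ORC2, GINS4 and WDHD1 under the label LNCaP and for GINS2 under the label VCaP. For 26 genes there was 1 probe set, so no such comparison could be made.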

How the data were processed

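RNA was measured on 24 arrays, in 12 groups of 2 biological replicates. The deposited values were MAS5 signal intensities on a linear scale, 1 per probe set, scaled array by array by the authors to a target intensity of 500. A change in the total RNA of a cell is therefore not visible, and every change is relative to the other probe sets of an array. Of 54675 probe sets, 62 controls were left out. The log2 of the signal was fitted with limma 3.58.1 in R 4.3.3, with 12 groups in 1 model (12 residual degrees of freedom), with Benjamini-Hochberg adjustment over 54613 probe sets in each of 18 contrasts. The study asked for detection calls and a change over 2-fold. Here a mean signal of 100 in either group stood in for the detection call, and the fold was asked for only where stated. The number of arrays limits the precision.

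Of the probe sets, 41091 had 1 gene symbol in the platform annotation, 1801 had several and 11721 had none. Each gene was read from its brightest probe set (mean log2 signal over all arrays), with _x_at sets left out where the gene had another (CDT1, RFC1 and CHAF1A have a brighter set of that type). Folds against a group mean under 100 are lower bounds against 100. Values on every array are given for the member of each role with the largest called fall at 0.5 µM under each of the labels LNCaP and VCaP. They are also given for the 2 members with the lowest adjusted p at 10 µM in each of PC3 and NCI-H660. Members called higher at 0.5 µM in any line, or at 10 µM in 2 or more lines, were added. Members and lists were chosen with earlier results of these data known. The fit was tested on simulated data. Promoters came from RefSeq (GRCh38.p14). Alternatives were another detection floor, quantile normalization, median centring, an intensity trend, separate fits for each line, a replicate block, the mean over probe sets, adjustment over detected probe sets only and leaving out each array. Replicate numbers did not pair the samples (correlations of deviations between groups -0.04 to 0.09), so the main fit has no block.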

Additional observations from a re-analysis of the deposited data

Results flagged for a closer look

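The response of the replication genes differed between lines by a test of the difference itself. Their mean change over the labels LNCaP and VCaP was further down than the mean change over PC3 and NCI-H660. This held for 39 of 52 members at 0.5 µM and 45 at 10 µM, and for 8.52% and 16.7% of all genes. A mean can pass without a fall under each label. GINS4 and TIMELESS were among the 39, with log2 changes of 0.02 and 0.17 under the label LNCaP at 0.5 µM. Against the label LNCaP, the label VCaP was further down for 26 members at 0.5 µM (5.7% of all genes) and 25 at 10 µM (12.1%). At 10 µM 1 member, GINS3, was further up under the label VCaP (9.78% of all genes). This call was lost when any but 1 of the 8 arrays involved was left out, and with a replicate block. The other probe set of GINS3 changed by -2.07 for the label VCaP and -2.84 for the label LNCaP. This gap was smaller than that of the set used (-1.06 and -2.38).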

How the results depend on the processing

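Over the 18 counts of members, 124 of 156 values under the alternatives other than leaving out an array stayed within 1.5 times the main count, and 32 did not. Counts at an unadjusted p under 0.05 by limma follow each 0 in brackets, and the cause of these shifts was not tested. The counts lower than vehicle under the labels LNCaP and VCaP moved past that limit once, to 21 for the label LNCaP at 0.5 µM with each line fitted alone, a fit with fewer arrays. That fit also gave 0 in PC3 at 0.5 µM (3) and 10 µM (12), 0 in NCI-H660 at 0.5 µM (2) and 1 at 10 µM, and between concentrations 0 for the labels LNCaP (17) and VCaP (17), PC3 (3) and NCI-H660 (1). Median centring gave 0 in PC3 at 0.5 µM (7) and 9 at 10 µM, 0 in NCI-H660 at 0.5 µM (2) and 1 at 10 µM, and between concentrations 7 for the label VCaP, 0 in PC3 (10) and 0 in NCI-H660 (0). It shifted the median of all genes by -0.18 and -0.13 on the log2 scale for the label LNCaP, -0.13 for the label VCaP at 10 µM and 0.18 for NCI-H660 at 10 µM. Quantile normalization gave 2 in NCI-H660 at 0.5 µM and 4 in PC3 between concentrations. An intensity trend gave 4 in NCI-H660 at 0.5 µM, and between concentrations 19 for the label VCaP, 10 for PC3 and 2 for NCI-H660. The mean over probe sets gave 0 in NCI-H660 at 0.5 µM (5) and 5 at 10 µM, and 5 in PC3 between concentrations. Adjustment over detected probe sets gave 2 in NCI-H660 at 0.5 µM and 4 in PC3 between concentrations. The replicate block, a pairing that the arrays did not bear out, gave 1 for PC3 and 0 for NCI-H660 (4) at the lower concentration, and between concentrations 7 for the label VCaP, 0 for PC3 (16) and 0 for NCI-H660 (2), while the other counts stayed within 1.5 times.

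With each array left out in turn, the counts ran for the label LNCaP from 27 to 28 at 0.5 µM and 34 to 35 at 10 µM, for the label VCaP from 39 to 41 and 43 to 44, for PC3 from 0 to 2 and 10 to 13, and for NCI-H660 0 throughout and 3 to 6. PC3 at 10 µM had 10 without vehicle replicate 1, vehicle replicate 2 or 10 µM replicate 1, and NCI-H660 at 10 µM had 4 without vehicle replicate 1 or 2 and 3 without 10 µM replicate 2. Between concentrations they ran from 10 to 19 for the label LNCaP, 6 to 8 for the label VCaP, 0 to 2 in PC3, and were 0 in NCI-H660. Differences between lines ran from 36 to 41 at 0.5 µM and 43 to 45 at 10 µM for both labels against PC3 and NCI-H660, and from 18 to 24 and 19 to 25 for the label VCaP against the label LNCaP. In vehicle they ran from 12 to 13 for NCI-H660 and from 8 to 9 for the label VCaP against the label LNCaP. Of 949 alternative values for 73 called changes of named genes, 866 kept their call, 83 lost it and 0 changed sign.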
